A study of Rattus norvegicus with 18 samples.

Results

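The comparison set rat somatosensory cortex before and around birth against the same cortical area later in postnatal life. The perinatal group held 4 tissue samples, from embryonic day 17 (E17), postnatal day 0 (P0, 2 biological replicates) and P3, and the late postnatal group held 3, from P7, P14 and P28. The miRNAs described were those named by the study's list of PCR primers or by its list of nucleotide changes in miRNA reads, 124 of the 793 miRNAs and candidates whose reads were counted. They comprised 113 known miRNAs and 11 of the study's candidate miRNAs, and 17 of the 124 stood in both lists. Of these 124, 121 had enough reads to be tested, and the levels and differences reported below are theirs unless another miRNA is named as outside the lists. The change list was used in a shortened copy, and 138 of its 160 names fitted a sequence, so that outside the lists means not among these 124.

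The study sequenced small RNA from Sprague Dawley rats over 8 stages, of which 6 were compared here. The dorsolateral cortex was dissected with the meninges removed, RNA was size-selected, and each tissue sample was sequenced by the Solexa technique in 2 runs, so that 14 of the 18 libraries entered. The labels name no treatment and no genotype beyond the strain, and do not give the number of animals behind a tissue sample. P0 alone had more than 1 tissue sample, so that at the other stages the stage and the tissue sample cannot be told apart, and p-values measure the spread between these samples, which differ in age within each group.

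MiRNAs are short RNAs cut from hairpin precursors and loaded into Argonaute proteins, which they guide to messenger RNAs mainly through the seed near their 5′ end. MiRNAs with the same seed are expected to share many targets and are therefore treated as a family, and hairpins that lie close together are often cut from 1 primary transcript. Around birth the rat cortex finishes making neurons and still holds dividing glial progenitors, whereas in the following weeks synapses form and oligodendrocytes mature and lay down myelin.

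The sequences below are mature miRNAs of RefSeq on the rat GRCr8 assembly, written 5′ to 3′ with the seed (bases 2 to 8) in capitals. They are shown because many of the largest differences fell into families that share these letters. MiR-206-3p and miR-1-3p, also among the largest rises, share a seed that is not shown. The miR-29 family, whose members all rose, has the seed AGCACCA.
miR-29a-3p: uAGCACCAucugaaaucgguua
miR-29b-3p: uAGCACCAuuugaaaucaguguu
miR-29c-3p: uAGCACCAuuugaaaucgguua
MiR-219a-2-3p, which had the largest rise, and the product of the same arm of the other miR-219a hairpin, miR-219a-1-3p, differ within the seed and moved in opposite directions.
miR-219a-2-3p: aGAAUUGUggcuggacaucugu
miR-219a-1-3p: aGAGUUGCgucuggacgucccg
The falling family with the most members was that of the miR-17-92 cluster and its paralogs, of which those shown here carry either the seed AAAGUGC or the seed AUUGCAC.
miR-17-5p: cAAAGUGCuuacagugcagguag
miR-20a-5p: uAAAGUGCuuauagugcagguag
miR-93-5p: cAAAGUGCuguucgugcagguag
miR-106b-5p: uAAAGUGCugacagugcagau
miR-25-3p: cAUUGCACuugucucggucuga
miR-92a-3p: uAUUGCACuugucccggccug
miR-363-3p: aAUUGCACgguauccaucugu
The miR-130 and miR-301 family, with the 2 largest falls, has the seed AGUGCAA and the miR-181 family the seed ACAUUCA.
miR-130a-3p: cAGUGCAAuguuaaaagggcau
miR-130b-3p: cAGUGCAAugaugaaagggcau
miR-301b-3p: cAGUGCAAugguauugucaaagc
miR-181a-5p: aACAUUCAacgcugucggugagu
miR-181c-5p: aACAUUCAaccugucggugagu
miR-181d-5p: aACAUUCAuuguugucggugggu
Of the let-7 family, which shares the seed GAGGUAG, let-7c-5p fell and the others did not pass the test. It is shown beside let-7a-5p because the likeness of their letters bears on how reads are assigned.
let-7a-5p: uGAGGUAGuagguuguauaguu
let-7c-5p: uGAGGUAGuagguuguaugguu

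More of the tested miRNAs fell than rose from the perinatal to the late postnatal samples. Of the 121, 51 (42.1%) passed an adjusted p of 0.05 in edgeR's quasi-likelihood test, 21 of them higher and 30 lower in the late postnatal group, against 34.4% of all 509 miRNAs and candidates tested, of which 15.9% rose and 18.5% fell. The counts given below for families and other lists stand against these shares. In all 51 the sign of the log2 difference held in run 1 alone and in run 2 alone, as it did for 173 of all 175 past the threshold (34.0% of those tested). Both runs read the same tissue samples and their sum gave the calls, so this agreement follows largely from the calls and is no replication. The median log2 difference (late postnatal minus perinatal) was -0.48 over the listed miRNAs and -0.18 over all tested. The levels of the groups did not overlap for 61 of the 121 (50.4%), with the late postnatal samples above in 37 and below in 24, against 43.8% of all tested. Of the 51 past the threshold, 42 had groups that did not overlap. The differences depended on scaling, since without TMM factors the median of all tested rose by 0.36 on the log2 scale to 0.18, and 34 listed miRNAs rose and 22 fell. No listed miRNA past the threshold turned sign without the factors. With the run as a replicate block, 62 passed the threshold, and 30 of these rose. Single samples weighed on the counts. Without P14, 21 listed miRNAs passed (10 rose and 11 fell), without P28, 22 (12 rose and 10 fell), and without P0 replicate 2, 36 (12 rose and 24 fell), and of all tested 52, 57 and 102 then passed.

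**Figure D1:**
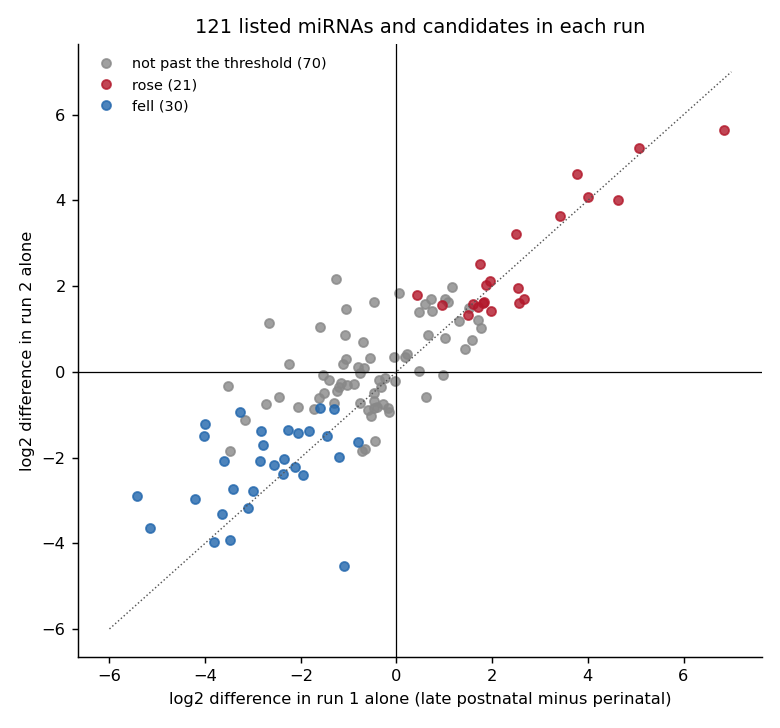
Log2 difference (late postnatal minus perinatal) of the 121 tested miRNAs and candidates of the lists, in run 1 alone on the horizontal axis and run 2 alone on the vertical axis. Each point is 1 miRNA, coloured by its call with both runs summed, and the dotted line marks equal values. The 21 that rose and the 30 that fell lie in the quadrants where both runs have the same sign.

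The tissue samples held between 20705184 and 26592607 clean reads over both runs, and the listed miRNAs took 80.0% to 84.1% of them. Libraries differed in tag length. Tags of 18 to 21 nt made up 40.6% to 46.6% of the run 1 reads of the other perinatal samples but 67.0% in P0 replicate 1, and 49.4% to 64.0% in the late postnatal samples, while in run 2 the shares were 31.4% to 40.3% and 39.0% to 44.4%. With the runs summed, the 2 P0 samples were not close replicates. The median gap between them was 1.002 on the log2 scale, 61 of 121 miRNAs were over 2-fold apart, and 55 of these were higher in P0 replicate 1. For 45 of the 51 miRNAs past the threshold the difference between the groups was larger than the gap between the P0 samples, as it was for 30 of the 70 others. The P0 gap enters the spread that the test uses, so this contrast follows in part from the threshold. The gap was taken without TMM factors. Several of the P0 gaps named below lay mostly in run 1. With P0 replicate 1 taken from run 2 alone, 54 listed miRNAs passed the threshold. The part of tag length in the differences was not tested. Since the samples are whole tissue, fewer cells of a type and less of a miRNA per cell cannot be told apart.

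The largest rise was that of miR-219a-2-3p, a miRNA of maturing oligodendrocytes that is known to repress genes of their precursors. Levels are given in RPM, reads of a miRNA per 1000000 clean reads of the sample, and log2 differences come from the fit with TMM factors, so that they differ from the ratio of mean RPM. It was at 29.4 RPM in E17, 54.0 and 6.36 in P0 replicates 1 and 2 and 63.2 in P3, and at 1244 in P7, 2112 in P14 and 8669 in P28. Every late postnatal sample exceeded every perinatal sample, and the level was higher at each later postnatal stage. The means of 38.2 ± 25.6 (SD, n = 4) and 4008 ± 4059.7 (SD, n = 3) RPM differed 105-fold, with a log2 difference of 6.35 ± 0.84 (here and throughout ± the standard error of the fit) and an adjusted p of 0.00106. The log2 difference was 6.85 in run 1 and 5.65 in run 2, and 5.17 without P28. This miRNA lies at chr3:33516517-33516538 on the minus strand, in the span of Cercam, and the gene table gives no exons with which to place it further.

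The other arm of the same hairpin, miR-219a-5p, is outside the lists and stood at a mean of 33.1 RPM in the perinatal and 69.3 in the late postnatal samples, with a log2 difference of 0.69 that did not pass the test (adjusted p = 0.331). The RefSeq table lists it for this hairpin alone, but the letters of the other miR-219a hairpin hold the same sequence, so that its reads cannot be split between them. MiR-219a-1-3p comes from the other hairpin, at chr20:4831641-4831662 on the plus strand. It was at 117 RPM in E17, 28.7 and 35.5 in P0 replicates 1 and 2 and 24.0 in P3, against 6.22 in P7, 8.02 in P14 and 5.72 in P28. It fell to a level below that of all perinatal samples, 7.70-fold by the means, with a log2 difference of -3.34 ± 0.64 (adjusted p = 0.00395). The other miRNA fixed as an oligodendrocyte miRNA, miR-338-3p, is outside the lists, and its log2 difference of 1.19 did not pass the test (adjusted p = 0.153). Thus 1 of the 2 oligodendrocyte miRNAs rose, with a median log2 difference of 3.77.

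All 3 members of the miR-29 family rose. These miRNAs are known to repress collagen and DNA methyltransferase messages, and their level is known to increase as the brain matures. The most abundant, miR-29a-3p, was at 635 RPM in E17, 1124 and 300.2 in P0 replicates 1 and 2 and 530.4 in P3, and at 4234 in P7, 7963 in P14 and 26049 in P28. The groups did not overlap, and the highest perinatal sample was P0 replicate 1. Its log2 difference was 3.94 ± 0.59 (adjusted p = 0.00213), a 19.7-fold difference of the means, 648 ± 347 (SD, n = 4) and 12749 ± 11668 (SD, n = 3). MiR-29b-3p was the scarcest of the family, at 7.93 RPM in E17, 18.1 and 5.37 in P0 replicates 1 and 2 and 7.70 in P3, and then 82.0 in P7, 95.7 in P14 and 1081 in P28. P28 stood far above P7 and P14, and all 3 were above every perinatal sample. The means differed 42.9-fold, and the log2 difference was 5.05 ± 0.87 (adjusted p = 0.00265). For miR-29c-3p the values were 34.6 RPM in E17, 97.1 and 41.6 in P0 replicates 1 and 2 and 96.6 in P3, then 254 in P7, 391 in P14 and 1321 in P28. This 9.71-fold rise had a log2 difference of 2.88 ± 0.62 (adjusted p = 0.00662).

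The 3 miR-29 miRNAs passed the threshold when any single tissue sample was left out, but P28 weighed on the size of the rise. Without it the log2 differences of miR-29a-3p, miR-29b-3p and miR-29c-3p were 2.93, 2.88 and 1.91. Their summed level was 725 ± 373 (SD, n = 4) RPM in the perinatal samples and 13823 ± 12815 (SD, n = 3) in the late postnatal samples, 19.1-fold higher. The hairpins of miR-29a and miR-29b lie at chr4:60617968-60618364 on the minus strand, where all 3 of 3 tested products rose. A further copy of miR-29b lies with miR-29c at chr13:109098841-109099433, where all 4 of 4 tested products rose.

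Neuronal miRNAs did not move together. Of the 9 fixed as neuronal, 4 rose and 2 fell, against 15.9% and 18.5% of all tested, with a median log2 difference of 0.97. MiR-132-3p, which is induced by neuronal activity through CREB, was at 5.40 RPM in E17, 29.0 and 14.4 in P0 replicates 1 and 2 and 28.7 in P3, and then at 43.7 in P7, 107.3 in P14 and 779.7 in P28. The groups did not overlap, but P7 lay close to the highest perinatal samples and P28 stood far above all others. The log2 difference was 3.57 ± 0.87 (adjusted p = 0.0101), a 16.0-fold difference of means, and without P28 it was 1.57 with an adjusted p of 0.113. Its other arm, miR-132-5p, outside the lists, rose with it (log2 difference 3.79, adjusted p = 0.00794), as did all 4 of 4 tested products of the miR-132 and miR-212 hairpins at chr10:60521771-60522112.

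MiR-138-5p, a regulator of dendritic spine size, was at 100.9 RPM in E17, 426 and 219 in P0 replicates 1 and 2 and 441 in P3, and at 1158 in P7, 960.3 in P14 and 1267 in P28. All late postnatal samples were above all perinatal ones, with a log2 difference of 1.54 ± 0.51 (adjusted p = 0.0365). MiR-127-3p, an imprinted miRNA antisense to Rtl1, was at 1768 RPM in E17, 1894 and 2455 in P0 replicates 1 and 2 and 4465 in P3, and at 7572 in P7, 11048 in P14 and 8880.1 in P28. Again the groups did not overlap, and the log2 difference was 1.34 ± 0.43 (adjusted p = 0.0317). Both calls were lost on leaving out any of several single samples. For miR-138-5p the adjusted p was 0.0712 without E17, 0.112 without P0 replicate 2, 0.094 without P7, 0.0776 without P14 and 0.0973 without P28. With identical tags alone its log2 difference was 0.84 (adjusted p = 0.279). For miR-127-3p the adjusted p was 0.119 without E17, 0.0939 without P0 replicate 2, 0.066 without P7, 0.127 without P14 and 0.083 without P28. In run 1 alone, with the count filter applied to that run, its log2 difference was 0.54 (adjusted p = 0.538). The fourth riser, miR-129-5p, is outside the lists, and its log2 difference of 1.66 (adjusted p = 0.0467) was -1.63 in run 1 alone.

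MiR-124, the most abundant neuron-specific miRNA of the brain, was lower late in the sum of all its reads. It was at 27874 RPM in E17, 130176 and 43005 in P0 replicates 1 and 2 and 38259 in P3, and at 34690 in P7, 23595 in P14 and 26582 in P28. The groups overlapped, since E17 lay below P7, and P0 replicate 1 stood far above every other sample. The log2 difference was -1.41 ± 0.47 (adjusted p = 0.0357), with means of 59828 ± 47322 (SD, n = 4) and 28289 ± 5741 (SD, n = 3) RPM. The adjusted p was 0.0647 without P0 replicate 1, 0.0618 without P0 replicate 2, 0.0517 without P7, 0.135 without P14 and 0.147 without P28. The call was also lost without TMM factors (-1.08, adjusted p = 0.0808) and in the block fit (adjusted p = 0.057), and in run 1 alone the log2 difference was -0.77 (adjusted p = 0.262). Its single tags differed from each other, as described further on. The other neuronal miRNA that fell, miR-9a-5p, is outside the lists (log2 difference -1.41, adjusted p = 0.0244).

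MiR-128-3p, which is enriched in neurons and limits their excitability, was at 21302 RPM in E17, 62941 and 60050 in P0 replicates 1 and 2 and 113072 in P3, and at 134305 in P7, 148662 in P14 and 138467 in P28. Every late postnatal sample was above every perinatal sample, but the log2 difference of 0.69 ± 0.45 did not pass the test (adjusted p = 0.239). Without TMM factors it was 1.13 and passed (adjusted p = 0.042). MiR-134-5p, a regulator of dendritic spines, had a log2 difference of 0.97 ± 0.55 (adjusted p = 0.176), with its lowest late postnatal value of 55.8 RPM in P28. MiR-137-3p was at 92.2 RPM in E17, 761 and 103 in P0 replicates 1 and 2 and 145 in P3, and at 155 in P7, 144 in P14 and 119.7 in P28. Only P0 replicate 1 stood apart from the other 6 samples, and the log2 difference was -1.25 ± 0.67 (adjusted p = 0.156). In run 1 alone P0 replicates 1 and 2 were at 2058 and 60.2 RPM, and in run 2 alone at 157 and 135.

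**Figure D2:**
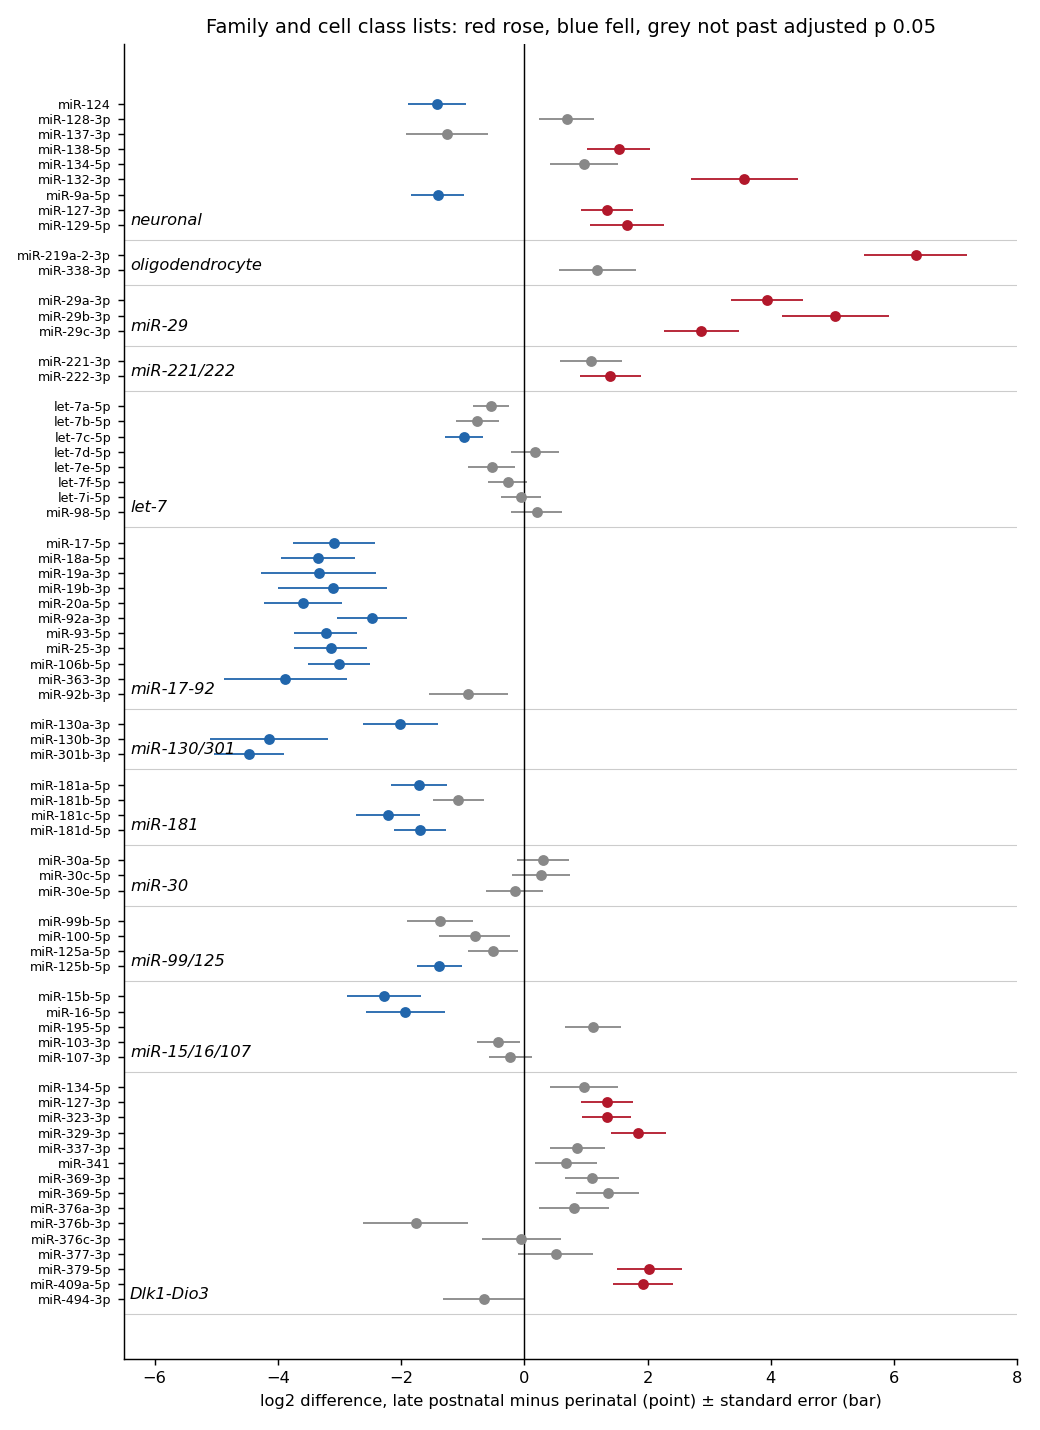
Log2 difference (late postnatal minus perinatal) of each tested miRNA of the family and cell class lists, with bars of ± 1 standard error from the edgeR fit over 4 perinatal and 3 late postnatal samples. Red points rose, blue points fell and grey points did not pass an adjusted p of 0.05. All 3 miR-29 miRNAs are on the right, 10 of 11 tested miRNAs of the miR-17-92 list are on the left past the threshold, and the neuronal list is spread over both sides.

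In the imprinted Dlk1-Dio3 region, which holds a large miRNA cluster expressed from the maternal allele, 5 of 15 miRNAs taken to represent the region rose and none fell, against 15.9% and 18.5% of all tested, with a median log2 difference of 0.97. Of these 15, miR-377-3p is not among the 124, since the base given for it in the change list did not match its sequence, while the listed miR-323-5p and miR-376b-5p lie in the region but are not among them. MiR-379-5p, the first hairpin of the cluster, was at 191 RPM in E17, 435 and 72.5 in P0 replicates 1 and 2 and 133 in P3, and at 773 in P7, 1524 in P14 and 864 in P28. The groups did not overlap, and the log2 difference was 2.02 ± 0.53 (adjusted p = 0.0127). For miR-329-3p the levels were 39.8 RPM in E17, 43.4 and 15.1 in P0 replicates 1 and 2 and 42.8 in P3, and then 159 in P7, 160.3 in P14 and 169 in P28, with P0 replicate 2 low among the perinatal samples. Its late postnatal levels were all above these, 4.61-fold by the means (log2 difference 1.85 ± 0.45, adjusted p = 0.0101, or 0.0509 in run 1 alone). MiR-409a-5p was at 110.5 RPM in E17, 94.1 and 55.2 in P0 replicates 1 and 2 and 109 in P3, and at 219 in P7, 407 in P14 and 766 in P28. It too did not overlap between the groups (log2 difference 1.92 ± 0.49, adjusted p = 0.0119).

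Both arms of the miR-323 hairpin were higher late. MiR-323-3p was at 827 RPM in E17, 1575 and 629 in P0 replicates 1 and 2 and 1042 in P3, and at 3450.1 in P7, 4055 in P14 and 2394 in P28, with a log2 difference of 1.33 ± 0.40 (adjusted p = 0.0238). Its partner miR-323-5p, scarcer in each sample, was at 28.9 RPM in E17, 53.4 and 26.3 in P0 replicates 1 and 2 and 47.4 in P3, and at 109.8 in P7, 269.8 in P14 and 254 in P28 (log2 difference 2.03 ± 0.47, adjusted p = 0.00901). In neither arm did the groups overlap. The adjusted p of miR-323-5p was 0.0525 without P14 and 0.0502 with identical tags alone. That of miR-323-3p was 0.063 without E17, 0.0822 without P0 replicate 2, 0.0809 without P7 and 0.118 without P14. It was 0.0698 with identical tags alone and 0.178 in run 1 alone (log2 difference 0.98). For miR-379-5p the adjusted p was 0.0736 without P14 and 0.0509 in run 1 alone, and for miR-409a-5p 0.0527 without P0 replicate 2 and 0.0582 without P28.

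These hairpins lie within chr6:134543460-134579828 on the plus strand, a run of 34 hairpins with gaps of at most 10 kb. Of its 63 products tested, listed or not, 17 rose (15.9% of all tested did), none fell and 56 had a positive log2 difference, while of its 13 listed miRNAs 5 rose and 10 were positive. MiR-127 lies in the neighbouring run at chr6:134298094-134331404, where 5 of 17 tested products rose. Not every listed miRNA of the region was higher late. MiR-376b-3p was at 62.6 RPM in E17, 707 and 35.0 in P0 replicates 1 and 2 and 106.7 in P3, and at 106.8 in P7, 87.7 in P14 and 40.0 in P28, with P0 replicate 1 above all others, and its log2 difference of -1.76 ± 0.85 did not pass the test (adjusted p = 0.121). Reads with a changed base were not counted in these levels. The study reports that an edited form of miR-376b was more abundant than the unedited form from P7. The part of such reads in this difference was not tested. MiR-369-3p, miR-369-5p and miR-376b-5p did not pass the test, but passed in the block fit (adjusted p = 0.0293, 0.0104 and 0.0184) and without TMM factors (adjusted p = 0.0405, 0.0464 and 0.0452).

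MiR-221-3p and miR-222-3p share a seed and neighbour each other on the X chromosome, and are known to repress the cell cycle inhibitor p27. MiR-222-3p was at 448 RPM in E17, 1963 and 980 in P0 replicates 1 and 2 and 1523 in P3, and at 2951 in P7, 3283 in P14 and 6573 in P28. The groups did not overlap and the log2 difference was 1.40 ± 0.50 (adjusted p = 0.0464). MiR-221-3p was at 479 RPM in E17, 1556 and 1312 in P0 replicates 1 and 2 and 2356 in P3, and at 2740.1 in P7, 4406 in P14 and 5158 in P28. These groups did not overlap either, but the log2 difference of 1.08 ± 0.50 did not pass the test (adjusted p = 0.11) and was -0.47 in run 1 alone. It passed without TMM factors (1.52, adjusted p = 0.0345) and in run 2 alone (adjusted p = 0.0192). The median of the pair was 1.24, and the adjusted p of miR-222-3p was 0.104 without E17, 0.121 without P0 replicate 2, 0.0569 without P3, 0.0664 without P7, 0.089 without P14 and 0.21 without P28. It was 0.119 in run 1 alone and 0.0993 in run 2 alone.

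MiRNAs of skeletal muscle and a miRNA of smooth muscle were among the largest rises. MiR-206-3p, a miRNA of skeletal muscle, was at 11.98 RPM in E17, 13.5 and 12.8 in P0 replicates 1 and 2 and 109 in P3, and at 921 in P7, 1879 in P14 and 813 in P28. P3 stood above the other perinatal samples, and all late postnatal samples lay above P3. The difference of means was 32.7-fold, with a log2 difference of 4.60 ± 0.84 (adjusted p = 0.00329). MiR-1-3p, which has the same seed and is a miRNA of heart and skeletal muscle, was at 4.79 RPM in E17, 2.30 and 1.44 in P0 replicates 1 and 2 and 33.9 in P3, and at 173 in P7, 261 in P14 and 334 in P28. Its pattern was alike, with P3 highest of the perinatal samples, and its log2 difference was 4.17 ± 0.94 (adjusted p = 0.00817). Without P3 the log2 differences of miR-206-3p and miR-1-3p were 6.02 and 6.07. MiR-143-3p, a miRNA of smooth muscle and pericytes, was at 216 RPM in E17, 299 and 161 in P0 replicates 1 and 2 and 254 in P3, and at 888 in P7, 1529 in P14 and 1612 in P28. Its groups did not overlap, and it rose 5.78-fold by the means (log2 difference 2.13 ± 0.41, adjusted p = 0.00395). Its cluster partner miR-145-5p, outside the lists, had a log2 difference of 0.39 that did not pass the test (adjusted p = 0.672) and was -2.27 in run 1 and 2.32 in run 2, and the endothelial miR-126a-3p, also outside the lists, had one of 0.77 (adjusted p = 0.182).

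Of 16 miRNAs fixed as markers of other cells that the dissected cortex could hold, 15 were tested. Of these, 4 rose, namely miR-1-3p, miR-206-3p, miR-143-3p and, outside the lists, the skeletal muscle miRNA miR-133a-3p, and 1 fell, the erythroid miR-144-3p, also outside the lists (log2 difference -1.68, adjusted p = 0.0453), with a median log2 difference of 0.77. Their summed level was 617 to 1542 RPM in the perinatal and 3997 to 5572 in the late postnatal samples. The 3 skeletal muscle miRNAs summed to 14.3 to 143 and 1095 to 2142, and the others to 602 to 1400 and 2857 to 3430. MiR-133a-3p was at 0 counts in P0 replicate 2 and P3 and at no more than 3.42 RPM in any sample, and met the count minimum only through the late postnatal samples, so that it had to differ. Of its reads, 55.6% also fitted another sequence. The epithelial miR-141-3p, outside the lists and not tested, was at 0 in P0 replicate 2, P14 and P28. The part of such cells in the rises was not tested. MiR-199a-3p, a mesenchymal miRNA of the primer list, was at 355 RPM in E17, 174 and 326 in P0 replicates 1 and 2 and 986 in P3, and at 1816 in P7, 1689 in P14 and 1040.1 in P28. The late postnatal samples were all above the perinatal ones, but the log2 difference of 1.29 ± 0.57 did not pass the test (adjusted p = 0.0956, or 0.0291 in the block fit, 0.036 without TMM factors and 0.0184 without P3).

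Further rises were smaller, and miR-139-3p and the miR-27 miRNAs are named after their values were seen. MiR-378a-3p, which lies in an intron of the metabolic coactivator gene Ppargc1b, was at 328 RPM in E17, 319 and 229.9 in P0 replicates 1 and 2 and 483 in P3, and at 820.4 in P7, 1511 in P14 and 1846 in P28, without overlap (log2 difference 1.62 ± 0.44, adjusted p = 0.0149). Its adjusted p was 0.0703 without P0 replicate 2, 0.073 without P14, 0.0584 without P28 and 0.0685 in run 2 alone. MiR-139-3p, from a hairpin in Pde2a, was at 187 RPM in E17, 198 and 172 in P0 replicates 1 and 2 and 267 in P3, and at 789 in P7, 1343 in P14 and 810 in P28, also without overlap (log2 difference 1.83 ± 0.42, adjusted p = 0.00901). MiR-22-3p was at 42.5 RPM in E17, 192 and 29.5 in P0 replicates 1 and 2 and 61.9 in P3, and at 215 in P7, 264 in P14 and 429.9 in P28. Its highest perinatal sample, P0 replicate 1, was close to P7, and the log2 difference of 1.58 ± 0.57 was near the threshold (adjusted p = 0.0483), with an adjusted p of 0.0959 without E17, 0.134 without P0 replicate 2, 0.0727 without P3, 0.0664 without P7, 0.101 without P14 and 0.154 without P28. With identical tags alone the log2 difference was 0.98 (adjusted p = 0.247), and without P0 replicate 1 it was 2.25. MiR-27a-3p (log2 difference 1.63 ± 0.49, adjusted p = 0.0238) and miR-27b-3p (1.53 ± 0.47, adjusted p = 0.0275) both rose, but 92.3% and 89.6% of their reads fitted both, so that they count as 1 observation.

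**Figure D3:**
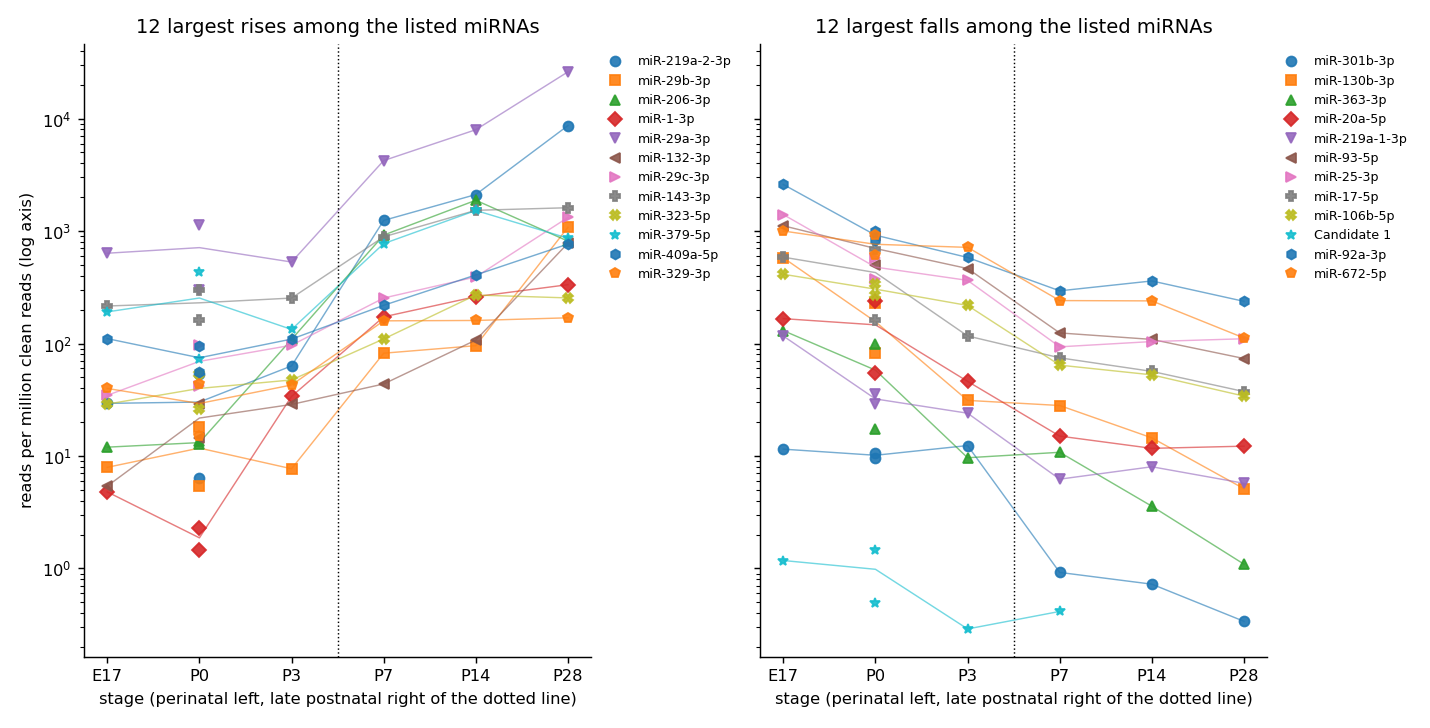
Level in RPM, on a log axis, of the 12 listed miRNAs with the largest rise (left) and the 12 with the largest fall (right) by stage. Each point is 1 tissue sample, P0 has 2, and lines join the stage means. MiR-219a-2-3p climbs from at most 63.2 at P3 and before to 8669 at P28, and Candidate 1, at 0 in P14 and P28, has no point there.

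Among the falls, miRNAs of the miR-17-92 cluster and its paralogs were the most numerous family, with 10 of 11 tested falling against 18.5% of all tested. These miRNAs are expressed in dividing cells, are activated by Myc and E2F, and repress inhibitors of the cell cycle and of survival signalling. The median log2 difference of the list was -3.14, against -0.18 over all tested, and the summed level was 2028 to 7540 RPM in the perinatal samples and 877 to 999.7 in the late postnatal samples. MiR-18a, miR-19a and miR-19b are counted among the 11 and in the sum but are outside the lists. The change list has a name for miR-19a that could not be assigned to 1 sequence. Of the listed miRNAs, 4 of 4 tested with the seed AAAGUGC and 3 of 4 with the seed AUUGCAC fell. MiR-20b-5p was listed but not tested, with 84 counts in E17, 39 in P0 replicate 1, and 8 or fewer in each other sample.

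MiR-17-5p was at 586 RPM in E17, 694 and 161 in P0 replicates 1 and 2 and 117 in P3, and at 74.6 in P7, 56.5 in P14 and 37.4 in P28. All late postnatal samples were below P3, the lowest perinatal sample. The log2 difference was -3.09 ± 0.66 (adjusted p = 0.00662), 6.94-fold lower by the means. MiR-20a-5p was at 166 RPM in E17, 239 and 54.2 in P0 replicates 1 and 2 and 46.1 in P3, and at 15.0 in P7, 11.7 in P14 and 12.2 in P28. It did not overlap either, with a log2 difference of -3.59 ± 0.63 (adjusted p = 0.00265). MiR-92a-3p was at 2596 RPM in E17, 839 and 999.9 in P0 replicates 1 and 2 and 582 in P3, and at 294 in P7, 360 in P14 and 237 in P28. Its log2 difference of -2.48 ± 0.57 (adjusted p = 0.00846) had groups that did not overlap, and missed the threshold without P28 (adjusted p = 0.0527). These 3 lie in the miR-17-92 cluster at chr15:98587861-98588622 on the plus strand, where all 10 of 10 tested products of 6 hairpins fell. The mature sequences of miR-17-5p and miR-92a-3p also stand in hairpins of the X-linked paralog at chrX:137342788-137343637 on the minus strand, so that their reads cannot be split between the clusters, and 7 of 7 tested products fell there.

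The third paralog, at chr12:22156652-22157123 on the minus strand within the span of Mcm7, a gene of the replicative helicase, held 5 listed miRNAs, all of which fell. With both runs summed, the 3 of the miR-17-92 list fell by similar amounts. MiR-93-5p was at 1115 RPM in E17, 901 and 499 in P0 replicates 1 and 2 and 464 in P3, and at 124 in P7, 109 in P14 and 73.6 in P28. MiR-106b-5p was at 413 RPM in E17, 339.8 and 269 in P0 replicates 1 and 2 and 218 in P3, and at 64.2 in P7, 52.6 in P14 and 34.1 in P28, and miR-25-3p at 1401 RPM in E17, 375 and 581 in P0 replicates 1 and 2 and 364 in P3, and at 93.4 in P7, 104 in P14 and 110.3 in P28. In each of the 3 the late postnatal samples were below all perinatal samples. The log2 differences were -3.22 ± 0.51, -3.01 ± 0.50 and -3.14 ± 0.59 (adjusted p = 0.00213, 0.00246 and 0.00371), and each passed when any single sample was left out. Over the other choices of processing, the lowest values of miR-93-5p, miR-106b-5p and miR-25-3p were -3.65, -3.47 and -5.35. All 6 of 6 tested products of this cluster fell.

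MiR-363-3p, the last hairpin of the X-linked cluster, was at 130.2 RPM in E17, 98.7 and 17.2 in P0 replicates 1 and 2 and 9.64 in P3, and at 10.8 in P7, 3.57 in P14 and 1.09 in P28. P7 lay above P3, so that the groups overlapped, and the log2 difference was -3.88 ± 0.999 (adjusted p = 0.0125, or 0.0613 without P14 and 0.0585 without P28). It was -1.97 without both E17 and P0 replicate 1 (adjusted p = 0.059) and -5.13 without P7. MiR-92b-3p shares the seed AUUGCAC but comes from another locus, and was at 1040 RPM in E17, 233 and 141 in P0 replicates 1 and 2 and 198 in P3, and at 185 in P7, 284 in P14 and 359 in P28. E17 stood above the other 6 samples, which overlapped, and the log2 difference of -0.91 ± 0.64 did not pass the test (adjusted p = 0.274). Summed by seed, AAAGUGC miRNAs were at 1572 ± 762 (SD, n = 4) and 221.8 ± 60.9 (SD, n = 3) RPM, 7.09-fold lower late. The AUUGCAC miRNAs were at 2401 ± 1860 (SD, n = 4) and 681 ± 87.5 (SD, n = 3).

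The miR-130 and miR-301 family fell in all 3 members tested, with a median log2 difference of -4.14. MiR-301b-3p was at 11.5 RPM in E17, 9.55 and 10.7 in P0 replicates 1 and 2 and 12.4 in P3, and at 0.921 in P7, 0.724 in P14 and 0.338 in P28. The 4 perinatal samples were close to each other and the late postnatal samples held only 20, 15 and 9 counts. The log2 difference was -4.47 ± 0.57 (adjusted p = 0.00106), 16.7-fold lower by the means. MiR-130b-3p, whose hairpin lies beside that of miR-301b at chr11:97384077-97384451, was at 578 RPM in E17, 231 and 81.7 in P0 replicates 1 and 2 and 31.2 in P3, and at 28.1 in P7, 14.5 in P14 and 5.11 in P28. It was lower at every successive stage, with a log2 difference of -4.14 ± 0.96 (adjusted p = 0.00901, or 0.0527 without P28). The log2 difference was -3.26 without E17 and -4.94 without P7. MiR-130a-3p, from chromosome 3, was at 716 RPM in E17, 852 and 206 in P0 replicates 1 and 2 and 159.7 in P3, and at 199.5 in P7, 131 in P14 and 111 in P28. P7 overlapped with P3, and the log2 difference was -2.01 ± 0.61 (adjusted p = 0.0242, or 0.101 without P14 and 0.102 without P28). The call was also lost without TMM factors (adjusted p = 0.0583), in run 1 alone (adjusted p = 0.0718) and without both E17 and P0 replicate 1, where the log2 difference was -0.91 (adjusted p = 0.142). Beside this fall stands the 4.14-fold gap of miR-130a-3p between the 2 P0 samples with the runs summed. In run 1 alone P0 replicates 1 and 2 were at 2198 and 206 RPM, and in run 2 alone at 226 and 206.

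Of the 4 miR-181 miRNAs, which are known in lymphocytes and neurons, 3 fell, with a median log2 difference of -1.70. MiR-181a-5p was at 5809 RPM in E17, 18956 and 6978 in P0 replicates 1 and 2 and 9239.8 in P3, and at 4632 in P7, 4792 in P14 and 2552 in P28. MiR-181c-5p was at 898 RPM in E17, 2498 and 918 in P0 replicates 1 and 2 and 981 in P3, and at 493 in P7, 382 in P14 and 205 in P28, and miR-181d-5p at 1833 RPM in E17, 3115 and 2116 in P0 replicates 1 and 2 and 2053 in P3, and at 1058 in P7, 1129 in P14 and 602 in P28. No late postnatal sample reached the lowest perinatal one in any of the 3. The log2 differences were -1.71 ± 0.45, -2.22 ± 0.52 and -1.69 ± 0.43 (adjusted p = 0.0137, 0.00917 and 0.0118). Over the other choices of processing they ranged from -2.69 to -1.36, from -2.73 to -1.88 and from -3.91 to -1.29. Each of these calls was lost without P14 (adjusted p = 0.0611, 0.0525 and 0.0595) and without P28 (adjusted p = 0.0795, 0.0501 and 0.0582). MiR-181b-5p had a log2 difference of -1.07 ± 0.42 that did not pass the test (adjusted p = 0.0622, or 0.0494 in the block fit). MiR-181c and miR-181d lie at chr19:40888314-40888545, where all 4 of 4 tested products fell.

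The let-7 family, which promotes differentiation and is the most abundant family of these samples, overlapped between the groups in sum. Its 8 miRNAs, among them miR-98-5p from outside the lists, took 454649 to 582089 RPM in the perinatal and 431291 to 468592 in the late postnatal samples, 1 of the 8 fell and none rose, and the median log2 difference was -0.40. The one that fell, let-7c-5p, was at 285157 RPM in E17, 219631 and 303151 in P0 replicates 1 and 2 and 266807 in P3, and at 206189 in P7, 190944 in P14 and 154156 in P28. The groups did not overlap, the difference of means was 1.46-fold, and the log2 difference of -0.99 ± 0.31 (adjusted p = 0.0288) was near the threshold. The log2 difference carries the TMM factors, which were higher in every late postnatal sample than in any perinatal one. Over the other choices of processing it ranged from -1.28 to -0.55. The adjusted p was 0.0736 without P0 replicate 2, 0.0567 without P3, 0.0621 without P7, 0.127 without P14 and 0.182 without P28. It was also above the threshold with DESeq2 (0.0835), without the count filter (0.0726), in run 1 alone (0.0581) and without both P3 and P7 (0.148). Let-7a-5p was at 75973 RPM in E17, 67263 and 74214 in P0 replicates 1 and 2 and 73220.2 in P3, and at 65224 in P7, 66348 in P14 and 70548 in P28, with a log2 difference of -0.54 ± 0.29 that did not pass the test (adjusted p = 0.163). Its groups overlapped. A tag that ends before the base at which let-7a-5p and let-7c-5p differ fits both and was counted for both.

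MiR-125b-5p, which shares a primary transcript with let-7c in mammals, was at 13373 RPM in E17, 9709 and 9492 in P0 replicates 1 and 2 and 8955 in P3, and at 6392 in P7, 4586 in P14 and 4811 in P28. All late postnatal samples were lower, and the log2 difference was -1.38 ± 0.37 (adjusted p = 0.0138, or 0.098 without P14 and 0.0764 without P28). It was the only 1 of 4 tested miRNAs of the list of miR-99 and miR-125 families to fall, miR-99b-5p among the 4 being outside the lists, and the median of that list was -1.09. Of the list of miR-15, miR-16 and miR-107 seeds, 2 of 5 fell, against 18.5% of all tested. MiR-15b-5p, a repressor of cyclin messages, was at 192 RPM in E17, 96.3 and 38.5 in P0 replicates 1 and 2 and 35.8 in P3, and at 20.3 in P7, 25.2 in P14 and 25.7 in P28 (log2 difference -2.28 ± 0.61, adjusted p = 0.014, or 0.0636 without P14 and 0.0582 without P28). MiR-16-5p, from the same transcript in the span of Smc4, was at 1906 RPM in E17, 2759 and 433 in P0 replicates 1 and 2 and 346 in P3, and at 476 in P7, 353 in P14 and 472 in P28. All 3 late postnatal samples lay above P3, the 2 P0 samples differed 6.37-fold, and the log2 difference was -1.93 ± 0.64 (adjusted p = 0.0357). Its adjusted p was 0.068 in the block fit and 0.0534 without E17, 0.0616 without P0 replicate 1, 0.066 without P7, 0.122 without P14 and 0.112 without P28. It was 0.0797 without TMM factors, 0.126 in run 1 alone and 0.0827 with P0 replicate 1 from run 2 alone. Without both E17 and P0 replicate 1 the log2 difference was -0.45 (adjusted p = 0.407). The gap between the P0 samples lay in run 1, where P0 replicates 1 and 2 were at 7741 and 441 RPM, against 440 and 427 in run 2. MiR-195-5p has the same seed and was at 26.4 RPM in E17, 60.7 and 32.6 in P0 replicates 1 and 2 and 47.3 in P3, and at 109 in P7, 90.8 in P14 and 157 in P28. Here the late postnatal samples were all higher, but the log2 difference of 1.12 ± 0.45 did not pass the test (adjusted p = 0.0712, or 0.0395 without TMM factors and 0.0272 with DESeq2).

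MiRNAs outside these families also fell. MiR-672-5p, from chrX:73192351-73192373 on the minus strand in the span of Nexmif, was at 1001 RPM in E17, 913 and 612 in P0 replicates 1 and 2 and 716 in P3, and at 241 in P7, 239 in P14 and 112 in P28. Its groups did not overlap (4.11-fold lower, log2 difference -2.42 ± 0.47, adjusted p = 0.00417), and it held when any single sample was left out. MiR-3099, which the study's primer list names as a candidate, was at 218 RPM in E17, 216 and 202 in P0 replicates 1 and 2 and 148 in P3, and at 74.7 in P7, 60.0 in P14 and 36.0 in P28. It too was lower in every late postnatal sample (3.44-fold, log2 difference -2.19 ± 0.49, adjusted p = 0.00817, or 0.0525 without P14). MiR-708-5p was at 1887 RPM in E17, 1285 and 474 in P0 replicates 1 and 2 and 317 in P3, and at 316 in P7, 191 in P14 and 239 in P28, with P7 just under P3 (log2 difference -2.32 ± 0.60, adjusted p = 0.0127, or 0.0726 without P14 and 0.0592 without P28). The adjusted p was 0.0598 in run 1 alone, and without both E17 and P0 replicate 1 the log2 difference was -1.28 (adjusted p = 0.0516). MiR-340-5p, named after its values were seen, was even within each group, at 956 RPM in E17, 1023 and 968 in P0 replicates 1 and 2 and 1069.9 in P3, and at 480.2 in P7, 467 in P14 and 392 in P28 (log2 difference -1.59 ± 0.41, adjusted p = 0.0127). Falls outside the rule for named miRNAs were those of miR-106b-3p, miR-25-5p, miR-33-5p, miR-331-3p, miR-345-3p and miR-374-5p, with log2 differences from -2.41 to -1.39.

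Of the 12 candidates of the primer list, counting miR-3099, 2 fell and none rose, against 18.5% and 15.9% of all tested, with a median log2 difference of -1.0003. Candidate 1 rested on few reads, at 1.18 RPM in E17, 1.47 and 0.495 in P0 replicates 1 and 2 and 0.290 in P3, and at 0.415 in P7, 0 in P14 and 0 in P28. P14 and P28 had 0 counts, which allows up to 3 counts in each, P7 lay above P3, and the log2 difference of -2.91 ± 1.04 (adjusted p = 0.0467, or 0.142 without P14 and 0.153 without P28) depends on the prior count. Of the 51 past the threshold it alone met the minimum of 10 counts in 3 samples only through the group in which it was higher, so that its fall is no independent support for a count of falls. The adjusted p was 0.0752 without TMM factors and 0.061 without the count filter, and the log2 difference was -7.46 without P7. Candidate 6 was at 0.479 RPM in E17, 2.66 and 0.578 in P0 replicates 1 and 2 and 1.70 in P3, and at 3.55 in P7, 3.86 in P14 and 6.69 in P28. The late postnatal samples were all higher, and the log2 difference of 1.45 ± 0.58 did not pass the test (adjusted p = 0.0663, or 0.0124 in the block fit and 0.043 without TMM factors). The other 9 candidates overlapped between the groups and did not pass the test, with log2 differences of -1.25 to -0.28. Among them Candidate 11 was abundant, with means of 1361 and 1165 RPM, and 96.4%, 98.5% and 98.7% of the reads of Candidates 2, 3 and 7 also fitted other sequences. Over the whole primer list, 9 of 42 rose and 11 fell (median log2 difference -0.88), and over the change list 18 of 96 tested rose and 23 fell (median -0.25), against 15.9% and 18.5% of all tested. The study chose both lists on these samples, so the counts are not independent evidence of a direction.

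Other miRNAs of the primer list did not pass the test. MiR-296-3p was at 1144 RPM in E17, 418 and 1130.3 in P0 replicates 1 and 2 and 925 in P3, and at 459 in P7, 302 in P14 and 11.8 in P28. P28 was far below all others, P7 lay above P0 replicate 1, and the log2 difference was -2.25 ± 0.89 (adjusted p = 0.0663, or 0.00836 in the block fit). MiR-298-5p, from the same imprinted Nespas transcript, had a log2 difference of -0.66 ± 0.52 (adjusted p = 0.329). The log2 difference of miR-344b-5p was 1.41 ± 0.63 (adjusted p = 0.0978), that of miR-135a-3p -0.85 ± 0.76 (adjusted p = 0.379), that of miR-494-3p -0.66 ± 0.66 (adjusted p = 0.435) that of miR-3559-5p -1.15 ± 0.58 (adjusted p = 0.141) and that of the miR-99b primer sequence -0.94 ± 0.66 (adjusted p = 0.274). MiR-99b primer sequence reads differed 7.79-fold between the 2 P0 samples with the runs summed. In run 1 alone P0 replicates 1 and 2 were at 122398 and 8799 RPM, and in run 2 alone at 1712 and 2453. None of the 3 miR-30 miRNAs tested, miR-30a-5p of the change list, miR-30c-5p outside both lists and miR-30e-5p of the change list, passed the threshold with edgeR (unadjusted p = 0.48, 0.565 and 0.739, median log2 difference 0.28), nor did miR-30a-5p and miR-30e-5p with DESeq2.

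No seed held miRNAs that passed the threshold in opposite directions. The lists contained 20 seeds shared by several miRNAs, 55 miRNAs in all, and 19 of these seeds had at least 2 tested members. In 8 of the 19, at least 2 members passed the threshold, although in 1 of the 8, UCACAGU, these were miR-27a-3p and miR-27b-3p, which count as 1 observation. Log2 differences of both signs occurred within 4 of the 19, namely those of miR-15b-5p, miR-16-5p and miR-195-5p, of miR-148b-3p and miR-152-3p, of miR-30a-5p and miR-30e-5p, and of let-7. The summed levels by seed were 725 ± 556 (SD, n = 4) and 164 ± 58.1 (SD, n = 3) RPM for AGUGCAA, and 15591 ± 7979 (SD, n = 4) and 6358 ± 1923 (SD, n = 3) for ACAUUCA.

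The second arm of a hairpin gives a reading of the same precursor that the lists did not use. Of the 51 miRNAs past the threshold, 36 had an arm outside the lists with enough reads to test, 38 pairs in all. The sign of the log2 difference was the same in 38 of 38 pairs, and 23 of these arms passed the threshold, 8 rising and 15 falling, all in the direction of the listed arm, while 34.4% of all miRNAs and candidates tested passed it. The pairs follow the RefSeq table, so miR-219a-5p entered with miR-219a-2-3p. Set against miR-219a-1-3p, which it may also accompany, its sign would have been opposite. Arms entered only where enough reads were present, and both arms come from the same libraries, so the counts are given as a description. MiR-92a-1-5p, for example, fell with miR-92a-3p (log2 difference -3.52, adjusted p = 0.00227). MiR-219a-5p was the arm whose log2 difference lay farthest from that of its listed partner.

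**Figure D4:**
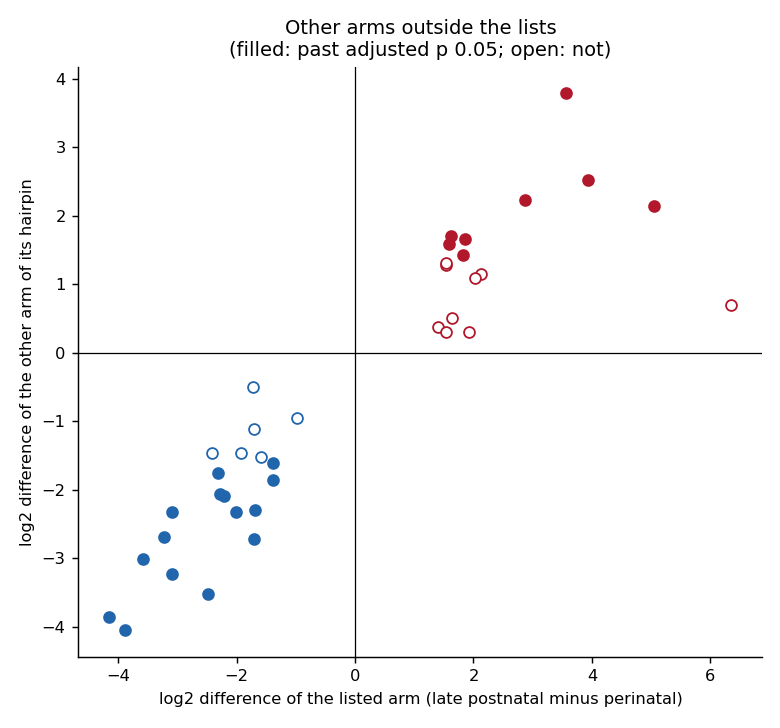
Log2 difference (late postnatal minus perinatal) of 36 listed miRNAs past the threshold (horizontal axis) and of the other arm of the same hairpin, outside the lists (vertical axis). Each of the 38 points is a pair of arms, filled where the other arm passed an adjusted p of 0.05. All lie where both arms have the same sign.

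Single tags gave fewer calls than miRNAs. Of 14478 tags tested, 7.55% passed an adjusted p of 0.05 (680 rose and 413 fell). Of the 2129 tags of listed miRNAs, 266 passed (12.5%), 116 higher and 150 lower. All 266 kept their sign in both runs, as did 1055 of the 1093 that passed over all tags. The median log2 difference of the 2129 was -0.65, against -0.11 over all tags. Without E17, P14 or P28 no tag passed the threshold, although 4306, 3042 and 2713 had an unadjusted p under 0.05, and DESeq2 called 3089 tags with all samples.

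Of the 86 miRNAs named by the rule for this report, 84 had a most abundant tag with the mature 5′ end, and in 31 this tag was identical to the mature sequence. The most abundant tag of miR-29a-3p was the mature sequence itself, 82.7% of its reads, and rose (log2 difference 4.17, adjusted p = 0.0158). That of miR-219a-2-3p was 20 nt long, 74.5% of its reads, and rose as well (log2 difference 6.65, adjusted p = 0.0158). Over 76 miRNAs the most abundant tag was set against the end variant whose difference lay farthest from it, and in 66 both were on the same side of 0. The median gap was 0.79 on the log2 scale, and 23 gaps exceeded 1.

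The most abundant tag did not always follow the sum. For miR-124 the 18 nt tag that holds 42.7% of the reads was at 13627, 38754, 17977 and 14342 RPM in E17, P0 replicates 1 and 2, and P3, and at 22247, 14615 and 16122 in P7, P14 and P28. These levels overlapped, and the log2 difference of -0.40 did not pass the test (adjusted p = 0.476). A 21 nt tag that starts 1 nt later was at 360.4 to 5203 RPM in the perinatal and 149 to 224 in the late postnatal samples. It did not overlap, with a log2 difference of -3.26 that also missed the threshold (adjusted p = 0.0541). For miR-3099 an 18 nt tag was the most abundant (log2 difference -1.27, adjusted p = 0.131), while a 25 nt tag fell (-3.20, adjusted p = 0.0281). For let-7c-5p the 22 nt tag had a log2 difference of -0.75 (adjusted p = 0.0737) and a 24 nt tag fell (-1.66, adjusted p = 0.0291).

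The ends of the reads were compared over the 104 listed miRNAs with at least 100 counts in each sample, as a mean share per sample. The share of reads that ended before the mature 3′ end was 56.4% in E17, 58.5% and 53.6% in P0 replicates 1 and 2, and 51.1% in P3, and 60.3%, 59.7% and 58.3% in P7, P14 and P28. With both runs the groups overlapped only in P0 replicate 1 and P28, while in run 1 alone P0 replicate 1, at 66.6%, was above P7, P14 and P28 (66.3%, 65.7% and 60.7%), and in run 2 alone the groups did not overlap. The means were 54.9% ± 3.2 (SD, n = 4) and 59.5% ± 1.0 (SD, n = 3), 4.57 points higher late (two-sided exact permutation test, p = 0.114, adjusted p = 0.171), and the share was higher late in 94 of 104 miRNAs.

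Reads that ran past the mature 3′ end took a smaller share late. Their share was 21.3% in E17, 20.2% and 23.9% in the P0 replicates and 24.1% in P3, and 18.1%, 18.2% and 19.8% in P7, P14 and P28. All late postnatal samples were below all perinatal samples, with means of 22.4% ± 1.9 (SD, n = 4) and 18.7% ± 0.96 (SD, n = 3). The exact permutation p was 0.0571, the smallest that 35 regroupings of 4 against 3 samples allow (adjusted p = 0.171), so that this design cannot reach 0.05. In run 1 alone the groups overlapped, since P0 replicate 1 was at 14.9%, between P14 at 14.8% and P28 at 19.4%, and in run 2 alone they did not overlap. The mature 5′ end was kept in 93.2% ± 0.36 (SD, n = 4) and 93.7% ± 0.40 (SD, n = 3) of the reads, a difference of 0.47 points (exact permutation p = 0.171). The largest shifts of single miRNAs were those of miR-124, with 23.9 points more short reads late, and miR-3099, with 18.6. The share of short tags over all reads differed between the groups in run 1 and run 2 as given above, and its part in these shifts was not tested.

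**Figure D5:**
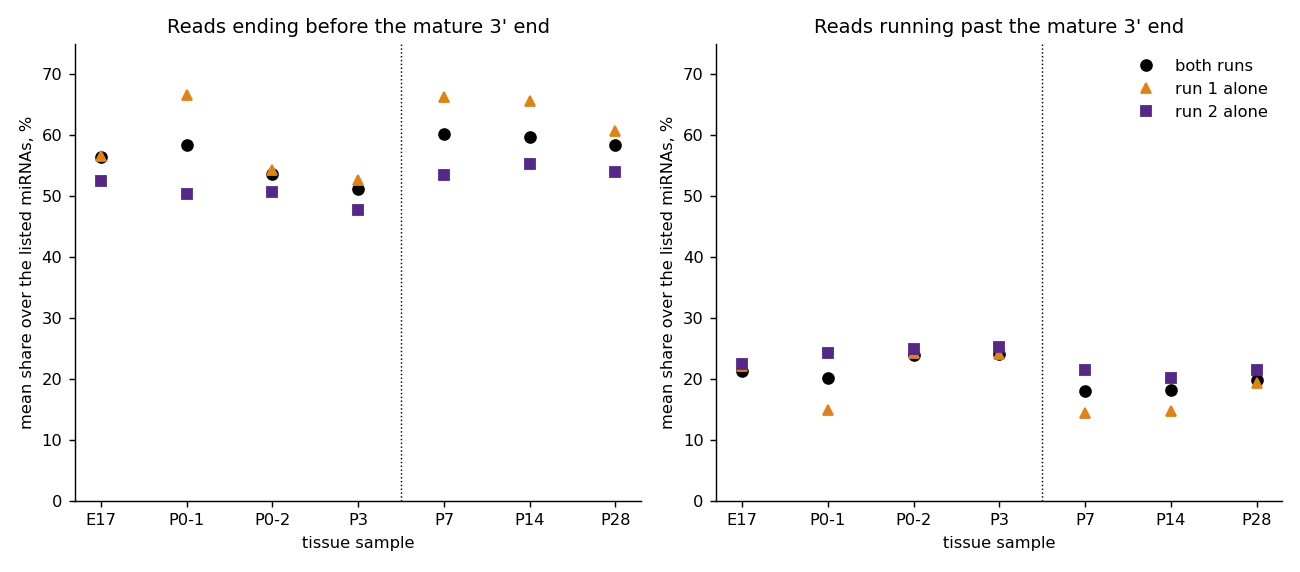
Mean share of reads, in percent over the listed miRNAs with at least 100 counts in each sample, that end before (left) or run past (right) the mature 3′ end, by tissue sample. Circles show both runs, triangles run 1 and squares run 2, P0-1 and P0-2 are P0 replicates 1 and 2, and the dotted line divides the groups. In P0-1 the triangle is far from the square, and with both runs the right-hand shares are 20.2% or more before and 19.8% or less after the line.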

How the data were processed

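Each library was deposited as the read counts of its unique clean tags, which the authors obtained by removing low quality reads, adaptors and contaminants and collapsing identical reads, without normalization. The counts of the 2 runs of a tissue sample, which are technical, were summed. Levels could differ widely between runs, as for miR-219a-2-3p in P28, at 17548 RPM in run 1 and 3316 in run 2. Runs 1 and 2 held 11033234 and 13129806 clean reads in P3 but 4899010 and 15806174 in P14, so that summed levels weigh the runs unequally. Tags of 18 to 30 nt were assigned to a miRNA if every base they had in common matched, the 5′ ends lay no more than 3 nt apart and the tag extended the mature 3′ end by 3 nt or less. A tag that met this for several miRNAs was counted for each. Sequences came from RefSeq (GRCr8), the study's primers and its candidate list. Of 30188 tags counted, 414 fitted several miRNAs, with 1.77% of the reads.

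Groups were compared with edgeR 4.0.16 in R 4.3.3 (quasi-likelihood test, TMM factors on total clean reads, at least 10 counts in at least 3 samples, Benjamini-Hochberg over 509 miRNAs and candidates), and single tags with at least 20 counts in at least 3 samples likewise. The factors were 0.704 to 1.04 in the perinatal and 1.10 to 1.23 in the late postnatal samples. RPM values are per 1000000 clean reads, without the factors. Shares of read ends were compared with exact permutation tests in SciPy 1.17.1. DESeq2 1.42.0 and limma 3.58.1 (voom, the block fit, with the run as covariate and the tissue sample as block) served as alternatives. Run 1 minus run 2 differences of 21 of 21 pairs of tissue samples correlated at 0.247 to 0.888, and the run numbers stand in the labels. Scripts were tested on simulated data.

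The lists, families and tests were chosen with earlier results of these data known. Named were the 12 largest rises and 12 largest falls past the threshold with the same sign in both runs, the members of the family lists and the primer list. Of the 160 names of the change list used here, 138 fitted a sequence. E10 and E13, labelled forebrain, were left out. Intervals from counts cover counting error only.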

Additional observations from a re-analysis of the deposited data

Results flagged for a closer look

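In 17 of the sets of 4 perinatal values examined, over 86 named miRNAs and the marker sums, 1 tissue sample lay far from the other 3 by Dixon's criterion, which chance exceeds in about 1 in 20 groups. P0 replicate 1 stood high for miR-124 (130176 RPM), miR-137-3p (761), miR-181b-5p (2757), miR-181c-5p (2498) and miR-376b-3p (707). E17 stood high for miR-219a-1-3p (117), miR-92b-3p (1040), miR-125b-5p (13373), miR-135a-3p (498), let-7d-5p (39299) and Candidate 7 (2.87). P0 replicate 2 stood low for miR-329-3p (15.1) and apart for miR-298-5p (1308). P3 stood high for miR-206-3p (109) and miR-1-3p (33.9), for the summed skeletal muscle miRNAs (143) and for the sum of all 16 markers of other cells (1542).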

How the results depend on the processing

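Among the 41 named miRNAs past the threshold, 810 values were recomputed with another choice. Of these, 689 stayed past the threshold, 121 did not and 0 changed sign, and 15 miRNAs passed under every alternative that gave a value. Among named miRNAs not past it, 44 of 867 values changed sign.

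The count of all miRNAs and candidates past the threshold, 175, was 105 with identical tags alone, 99 in run 1 alone and 52 to 196 when a tissue sample was left out (52 without P14, 57 without P28, 102 without P0 replicate 2). Of the listed miRNAs, 21 to 56 passed with a sample left out (21 without P14, 22 without P28 and 36 without P0 replicate 2). The number that rose was 34 without TMM factors, 12 in run 1 alone and 10 to 25 with a sample left out (10 without P14, 12 without P28 or P0 replicate 2). The number that fell was 10 to 33 with a sample left out (10 without P28, 11 without P14). The count of tags, 1093, was 3089 with DESeq2, 667 with 20 counts over all samples, 58 in run 1 alone, 1699 with P0 replicate 1 from run 2 alone (chosen after seeing the data), and 0 to 1636 with a sample left out (0 without E17, P14 or P28, 114 without P0 replicate 2, 130 without P7). In the block fit, 198 miRNAs and candidates and 62 listed miRNAs passed. The causes were not tested, beyond fewer samples or features entering.

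Log2 differences of these named miRNAs, none past the threshold, changed sign. In run 1 alone, here with the count filter applied to that run, they were miR-221-3p (-0.33), miR-30e-5p (0.53), miR-341 (-0.96) and miR-376c-3p (0.12), and in run 2 alone let-7d-5p (-0.23), miR-30a-5p (-0.32) and miR-376c-3p (0.10). Without TMM factors they were let-7f-5p (0.18), let-7i-5p (0.37), miR-30e-5p (0.17), miR-103-3p (0.026), miR-107-3p (0.21), miR-376c-3p (0.21) and Candidate 2 (0.026). DESeq2 gave let-7i-5p 0.0099 and miR-376c-3p 0.066. Without the filter the values were 0.10 for let-7i-5p, 0.0019 for miR-30e-5p and 0.088 for miR-376c-3p, and with identical tags -0.70 for miR-376a-3p. The block fit gave miR-30e-5p 0.036, miR-376c-3p 0.56 and Candidate 9 0.23. Without E17 and P0 replicate 1 they were miR-92b-3p (0.11), miR-30e-5p (0.47), miR-100-5p (0.59), miR-376c-3p (1.39), miR-494-3p (0.99), miR-135a-3p (0.97), the miR-99b primer sequence (0.94) and Candidates 2 (0.66), 3 (0.57), 5 (0.63) and 9 (2.87). With P0 replicate 1 from run 2 alone miR-376c-3p was 0.87. With a sample left out the ranges were -0.10 to 0.42 for let-7d-5p, -0.20 to 0.016 for let-7i-5p, -0.37 to 0.057 for miR-30e-5p (-0.35 without P0 replicate 2, 0.024 without P14), -0.38 to 0.83 for miR-376c-3p (0.038 without P14, 0.035 without P28), -0.58 to 0.038 for Candidate 2 and -1.23 to 0.45 for miR-135a-3p.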
